A study of Bos taurus with 16 samples.

Results

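Malic enzymes and aminotransferases were examined in the muscle of newborn Hanwoo calves through 9 genes, which were ME1, ME2, ME3, GPT, GPT2, GOT1, GOT2, PC and PCK2. The genes were taken by their symbols, matched to the NCBI gene IDs of the count and normalized tables, and all 9 were found among 34109 listed genes. The members were chosen by the measured treated against control values of ME2 and GPT2, with the other genes added as their isozymes and metabolic neighbours, so every diet value of a member is given as a description without a p-value. Comparisons of round with sirloin muscle, isozyme shares between the muscles and agreement between the muscles of a calf were not used in that choice and were tested. Each of these runs over both diets, however, and so still holds the diet values.

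RNA was sequenced from the round and the sirloin muscle of 8 male calves of the Hanwoo breed, taken right after birth and before colostrum. The dams of the 4 control calves received 100% of their requirement in mid to late pregnancy and the dams of the 4 treated calves received 150%. Both groups were otherwise managed alike, and feeding reached the calves only through the dam. Each group held 4 libraries, and the round and sirloin libraries of a calf carry the same replicate number. The libraries held between 44473011 and 72446933 counts each for round muscle, and sirloin depths were alike, at 44863173 to 72165291 counts.

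Malic enzymes turn malate into pyruvate while making NADH or NADPH, in the cytosol (ME1) or in mitochondria (ME2 and ME3). Alanine aminotransferases exchange an amino group between pyruvate and glutamate, and aspartate aminotransferases do so between oxaloacetate and glutamate, each with a cytosolic form (GPT, GOT1) and a mitochondrial form (GPT2, GOT2). Pyruvate carboxylase (PC) and mitochondrial phosphoenolpyruvate carboxykinase (PCK2) make and use oxaloacetate, so that the set joins the pyruvate, malate and amino acid pools of muscle.

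The labelled tissue was checked against markers. All 8 skeletal muscle markers (ACTA1, CKM, DES, MB, TTN, MYH1, MYH2 and MYH7) exceeded 1 TPM (transcripts scaled to a constant library total, the authors' length-normalized unit) in every library, with a sum of 47452 to 90197 TPM. The sirloin library of treated replicate 4 stood apart. The sum of its 5 adipocyte markers (ADIPOQ, PLIN1, CIDEC, LEP and FABP4) was 3777 TPM, against 0.730 to 14.99 TPM (median 4.71) in the other 15 libraries. LEP was at 0 in 14 of the 16 libraries and CIDEC in 9. The sum of 5 red blood cell genes was 13.4 to 36.6 TPM in treated and 3.88 to 18.8 TPM in control round muscle, and 12.97 to 36.04 TPM against 3.84 to 14.5 TPM in sirloin muscle. The sum of 3 fibroblast markers was highest in round control replicate 2, at 1048 TPM. In such bulk tissue, fewer cells of a type and less RNA per cell cannot be told apart.

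GOT2, the mitochondrial aspartate aminotransferase, had the highest level of the 9 genes, with a median of 573 TPM over the 16 libraries (range 413 to 868). GOT1, its cytosolic counterpart, followed with a median of 176 TPM and lay below GOT2 in 16 of 16 libraries without any overlap of their ranges. GPT, the cytosolic alanine aminotransferase, had a median of 36.5 TPM and lay above ME2 in 14 of the libraries. ME2 and GPT2 could not be ordered, since their medians were 18.8 and 18.2 TPM and ME2 was above GPT2 in 9 of the 16 libraries. PC, which carboxylates pyruvate to oxaloacetate, had a median of 10.5 TPM. The remaining 3 genes were low and also lay close together, with medians of 4.06 TPM for ME1, 3.17 TPM for PCK2 and 2.65 TPM for ME3, and their ranges overlapped. The order by muscle and diet is seen in the plot of levels. The fewest reads lay behind PCK2, with 10 to 1443 counts per library, and behind ME3, with 51 to 700 counts.

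**Figure D1:**
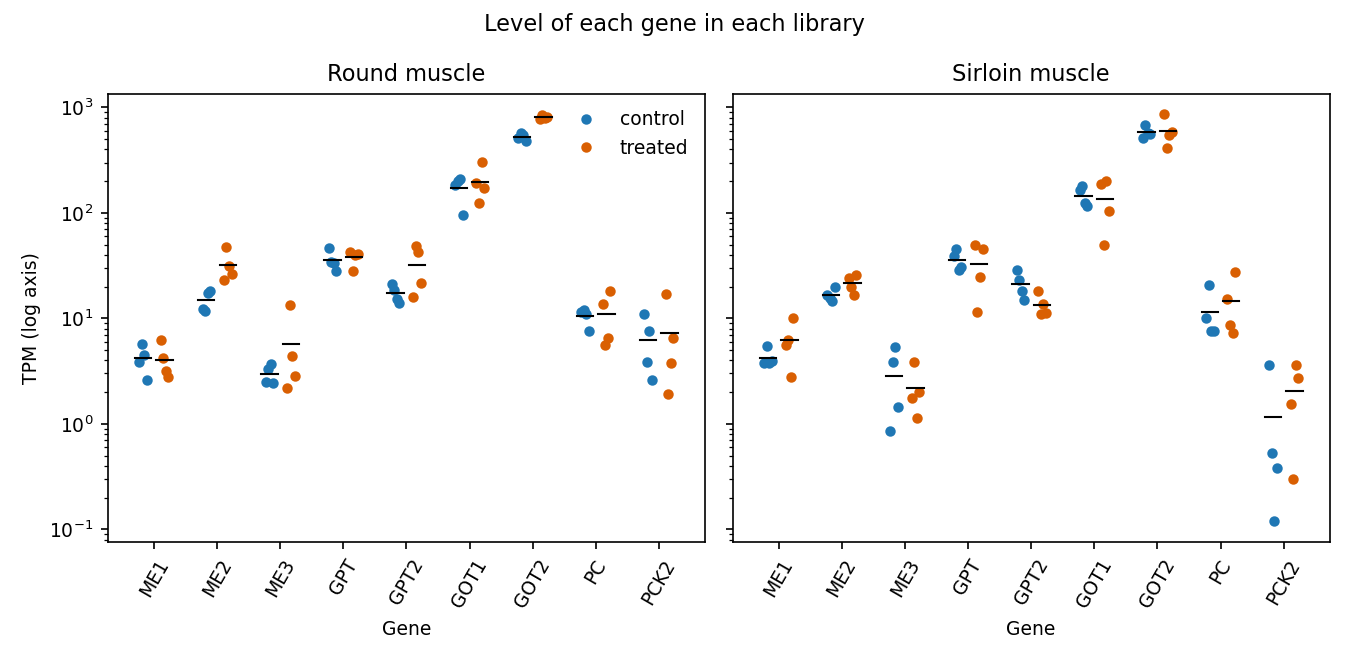
Level of each of the 9 genes in every library, in TPM on a log axis, for round muscle (left) and sirloin muscle (right). Points are libraries (4 control in blue and 4 treated in orange per muscle) and black lines are group means. GOT2 lies highest in both muscles, the diet groups of ME2 and GOT2 are apart in round muscle only, and PCK2 falls to between 0.119 and 3.61 TPM in sirloin muscle.

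ME2, the NAD-dependent mitochondrial malic enzyme, was higher in the round muscle of treated calves. Its level in the control round libraries was 12.2, 11.7, 17.5 and 18.0 TPM in replicates 1 to 4. In the treated round libraries it was 23.1, 47.3, 31.1 and 26.1 TPM. The groups did not overlap, and treated replicate 2 was the highest library. On the scale of the counts (CPM, counts scaled to a constant total with TMM library factors) the control libraries held 26.1, 27.6, 54.3 and 40.8 and the treated libraries 57.7, 121, 89.5 and 71.7. The groups were apart there too, but control replicate 3 lay just below treated replicate 1. The log2 fold change from the counts was 1.21 (SE 0.307, n = 4 per group), or 2.32-fold, and it stayed between 0.97 (without treated replicate 2) and 1.45 on leaving out any single calf.

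The scales differ because the authors' TPM per count was not constant for ME2. Relative to the median gene of a library it ran from 0.856 to 1.37 times the ME2 median, a 1.60-fold range over the 16 libraries that was as wide or wider than in 97.8% of 12226 genes. For the other 8 members the range was 1.01-fold to 1.06-fold, and the median over those genes was 1.03-fold. High TPM per count of ME2 (1.23 to 1.37) was found in round control, sirloin control and sirloin treated libraries, and the 4 treated round libraries lay at 0.856 to 0.994. The transcripts counted as ME2 in each library were not examined.

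In sirloin muscle the ME2 groups overlapped. The control libraries held 16.6, 15.6, 14.7 and 19.8 TPM and the treated libraries 24.2, 19.7, 16.8 and 25.5 TPM. The log2 fold change was 0.29 (SE 0.254), and 0.04 without treated replicate 4, the library with the high adipocyte markers. Treated replicate 1, whose adipocyte markers were not raised, had an ME2 level near that of replicate 4 by TPM, but 40.1 against 66.6 CPM. The part of adipocyte RNA in the sirloin value of ME2 was not tested. With the counts of both muscles of a calf summed, the log2 fold change of ME2 was 0.81 (SE 0.225), and 0.79 (SE 0.249) without treated replicate 4. The sirloin minus round difference in the diet effect was -0.89 (SE 0.414).

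The isozymes of ME2 gave smaller diet values than ME2 in round muscle. In sirloin muscle they were larger in size with all calves, but without treated replicate 4 ME1 gave 0.01 and ME2 0.04. ME1, the cytosolic NADPH-forming malic enzyme, ranged from 2.60 to 5.66 TPM in control and from 2.77 to 6.17 TPM in treated round muscle, with a log2 fold change of -0.10 (SE 0.323). In sirloin muscle it was 0.36 (SE 0.343), and 0.01 without treated replicate 4, which had the highest ME1 level of all libraries, at 10.1 TPM. ME3, the NADP-dependent mitochondrial form, had a log2 fold change of 0.78 (SE 0.479) in round muscle. That value rested on treated replicate 2, at 13.4 TPM against 2.19 to 4.44 TPM in the other 3 treated libraries, and was 0.01 without it. In sirloin muscle ME3 gave -0.57 (SE 0.563), with 0.854 to 5.29 TPM in control and 1.14 to 3.87 TPM in treated libraries.

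GPT2, the mitochondrial alanine aminotransferase, had diet values of opposite sign in the muscles. The control round libraries held 20.98, 18.64, 15.29 and 13.96 TPM, and the treated round libraries 16.1, 48.6, 42.5 and 21.6 TPM. Treated replicates 2 and 3 lay far above the others, while treated replicate 1 lay within the control range. In sirloin muscle the control libraries held 28.60, 22.95, 18.29 and 14.99 TPM and the treated libraries 18.0, 11.1, 13.6 and 11.3 TPM. Here 3 of the 4 treated libraries were below all controls, and the groups overlapped through treated replicate 1.

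The log2 fold change of GPT2 was 0.79 (SE 0.324, 0.57 to 1.00 on leaving out single calves) in round and -0.86 (SE 0.269, -1.02 to -0.63) in sirloin muscle. Over both muscles it was 0.07 (SE 0.265). The difference in the diet effect, sirloin minus round, was -1.63 (SE 0.441) and stayed between -2.001 and -1.324 on leaving out single calves. This was the largest such difference in size among the 9 genes. GPT, the cytosolic form, gave 0.01 (SE 0.260) in round and -0.30 (SE 0.399) in sirloin muscle, with overlapping groups in both.

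GOT2 was the other gene whose diet groups were apart in round muscle. The control round libraries held 509, 571, 548 and 481 TPM and the treated ones 781, 842, 789 and 820 TPM. The spread within each group was small, with means of 527 ± 40.2 and 808 ± 28.0 TPM (SD, n = 4). The log2 fold change was 0.52 (SE 0.217), or 1.44-fold, and 0.46 to 0.55 on leaving out single calves. In sirloin muscle it was -0.11 (SE 0.243), with 509 to 674 TPM in control and 413 to 868 TPM in treated libraries. GOT1 ranged from 96.4 to 207 TPM in control and from 123 to 302 TPM in treated round muscle. Its log2 fold change was 0.12 (SE 0.328) in round and -0.27 (SE 0.393) in sirloin muscle.

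PC and PCK2 showed no diet difference beyond their spread. PC gave a log2 fold change of 0.01 (SE 0.378) in round and 0.19 (SE 0.443) in sirloin muscle. Without treated replicate 4 these values were -0.40 and -0.31. The sirloin library of that calf had the highest PC level, at 27.2 TPM. The round library of that calf held 18.0 TPM, the highest round level, with 4.73 TPM of adipocyte markers. PCK2 gave 0.16 (SE 0.646) in round, with -0.73 to 0.64 on leaving out single calves, and 0.60 (SE 0.968) in sirloin muscle. The sirloin value rose to 2.46 without control replicate 1. Control replicate 1 held 3.61 TPM of PCK2, against 0.119 to 0.524 TPM in the other 3 sirloin controls.

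The number of members past the threshold (edgeR quasi-likelihood test, Benjamini-Hochberg adjusted over all genes, adjusted p below 0.05) was 0 of 9 for diet in round muscle, where 0.0185% of 21677 tested genes passed. It was 0 of 9 in sirloin muscle as well, against 0.00918% of 21776 genes. Over both muscles 0 of 9 passed, against 0.00437% of 22877 genes, and for the difference in diet effect 0 of 9 passed against 0% of the genes. At an unadjusted edgeR p below 0.05 the counts over all genes were 956, 852, 881 and 637. With DESeq2 0 of 9 passed in each of these contrasts too, against 0.208%, 0.0597%, 0.162% and 0.0175% of the genes, and 0 of 9 passed for the difference with the calf as a block in edgeR (0.00437% of the genes).

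By TMM-scaled counts, groups without overlap in round muscle were found for 2 of 9 members, ME2 and GOT2, with treated higher in both, and for 0.687% of all tested genes in that direction. In sirloin muscle 0 of 9 members were without overlap, against 1.68% of genes in either direction. The median log2 fold change of the members was 0.16 in round and -0.11 in sirloin muscle, where the medians over all genes were 0.02 and 0.03. The rule used these contrasts, so the counts describe the members only.

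**Figure D2:**
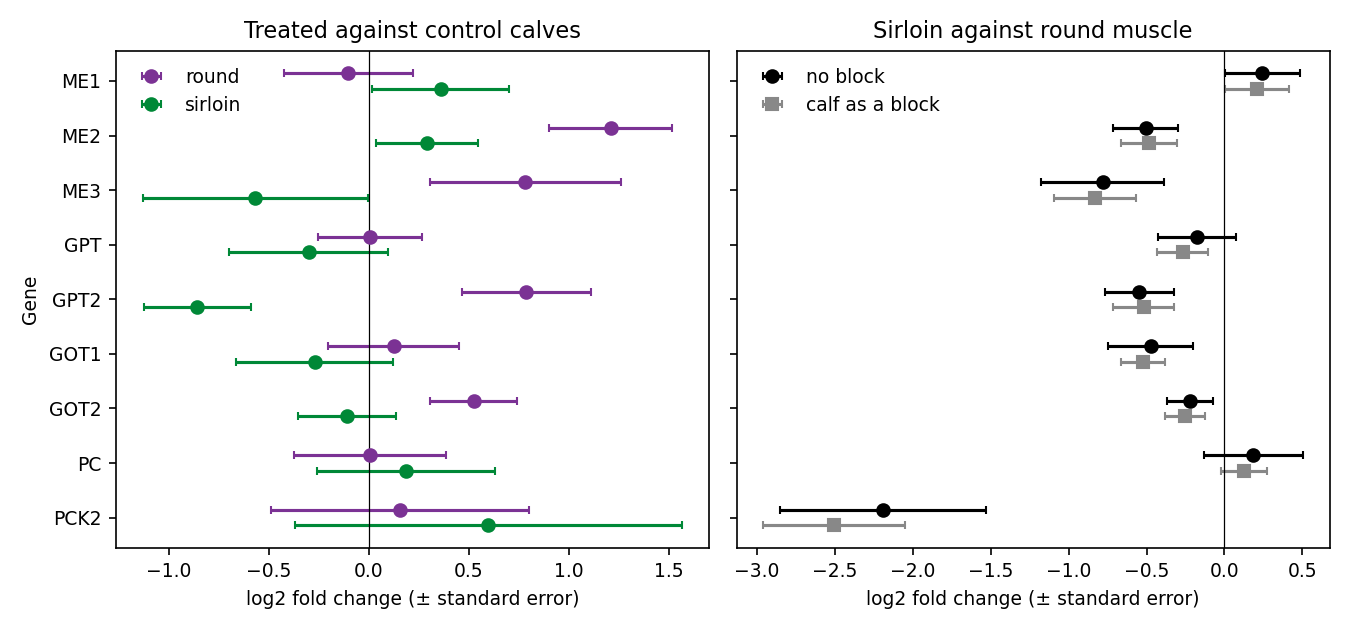
Log2 fold changes with standard errors (bars) from the counts for the 9 genes. The left panel gives treated against control calves in round (purple) and sirloin (green) muscle, 4 libraries per group, and the right panel gives sirloin against round muscle over 8 calves without (black circles) and with (grey squares) the calf as a block. GPT2 stands at 0.79 in round and -0.86 in sirloin muscle, and PCK2 has the lowest sirloin against round value, at -2.19 and -2.50.

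PCK2 was lower in sirloin than in round muscle in 8 of 8 calves. The round libraries of the controls held 11.1, 3.87, 7.56 and 2.62 TPM and their sirloin libraries 3.61, 0.524, 0.119 and 0.379 TPM. In treated calves the round libraries held 17.01, 1.94, 3.79 and 6.50 TPM and the sirloin libraries 1.56, 0.298, 3.59 and 2.74 TPM. The ratio of round to sirloin within a calf ran from 1.06 in treated replicate 3 to 63.4 in control replicate 3, where the sirloin value rests on 10 counts. The median ratio was 6.71.

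The log2 fold change of PCK2, sirloin against round, was -2.19 (SE 0.661), which did not pass in the edgeR test over all genes without pairing (Benjamini-Hochberg adjusted p = 0.576). With the calf as a block it was -2.50 (SE 0.455) and passed (edgeR, Benjamini-Hochberg adjusted p = 0.0399). The blocked result depended on single calves. Its adjusted p was 0.0284, 0.0314 and 0.0342 without control replicate 1, treated replicate 3 or treated replicate 4. It rose to between 0.0655 and 0.112 without control replicate 2, 3 or 4 or treated replicate 1 or 2. DESeq2 without pairing gave an adjusted p of 0.170.

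None of the other 8 members passed for muscle in any of these fits. Of the 9 members 0 passed without the block, where 0.0612% of 22877 genes did, and 0 passed with DESeq2 (0.372% of genes). With the calf as a block 1 passed, against 0.476% of genes. Lower values in sirloin muscle in all 8 calves were found for 1 member, PCK2, and for 1.15% of all genes. The log2 fold change was negative for 7 of 9 members, with a median of -0.47, where the median over all genes was -0.00.

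GOT1 was lower in sirloin muscle in 7 of 8 calves, with a log2 fold change of -0.47 (SE 0.272, edgeR adjusted p = 0.852, and 0.142 with the calf as a block). ME2 gave -0.51 (SE 0.207, edgeR adjusted p = 0.743) and GPT2 -0.55 (SE 0.220, edgeR adjusted p = 0.741). The largest ratios of round to sirloin for both were in treated calves, as the plot of calf pairs shows. The muscle values of ME2 and GPT2 run over both diets, so their p-values are not free of the choice by diet. GPT2 was higher in sirloin in 4 of 4 control calves by TPM, with round to sirloin ratios of 0.734 to 0.931, and in 3 of 4 by TMM-scaled counts, where control replicate 4 had 1.07. In treated replicates 2, 3 and 4 the ratios were 4.396, 3.127 and 1.923. ME2 had ratios of 2.40 and 1.85 in treated replicates 2 and 3 and of 0.732 to 1.19 in the other 6 calves. By TPM ME2 was higher in round in 4 of 8 calves, whereas by TMM-scaled counts it was lower in sirloin in 6 of 8, so its direction within a calf depended on the scaling.

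ME3 was lower in sirloin muscle in 6 of 8 calves and gave -0.78 (SE 0.396, edgeR adjusted p = 0.811), and -0.83 (SE 0.263, edgeR adjusted p = 0.212) with the calf as a block. GOT2 gave -0.22 (SE 0.149), GPT -0.18 (SE 0.251), PC 0.18 (SE 0.317) and ME1 0.24 (SE 0.241), with edgeR adjusted p-values from 0.917 to 1, and from 0.512 to 0.905 with the calf as a block. ME1 was 0.00 without treated replicate 4, whose sirloin library holds the adipocyte markers.

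**Figure D3:**
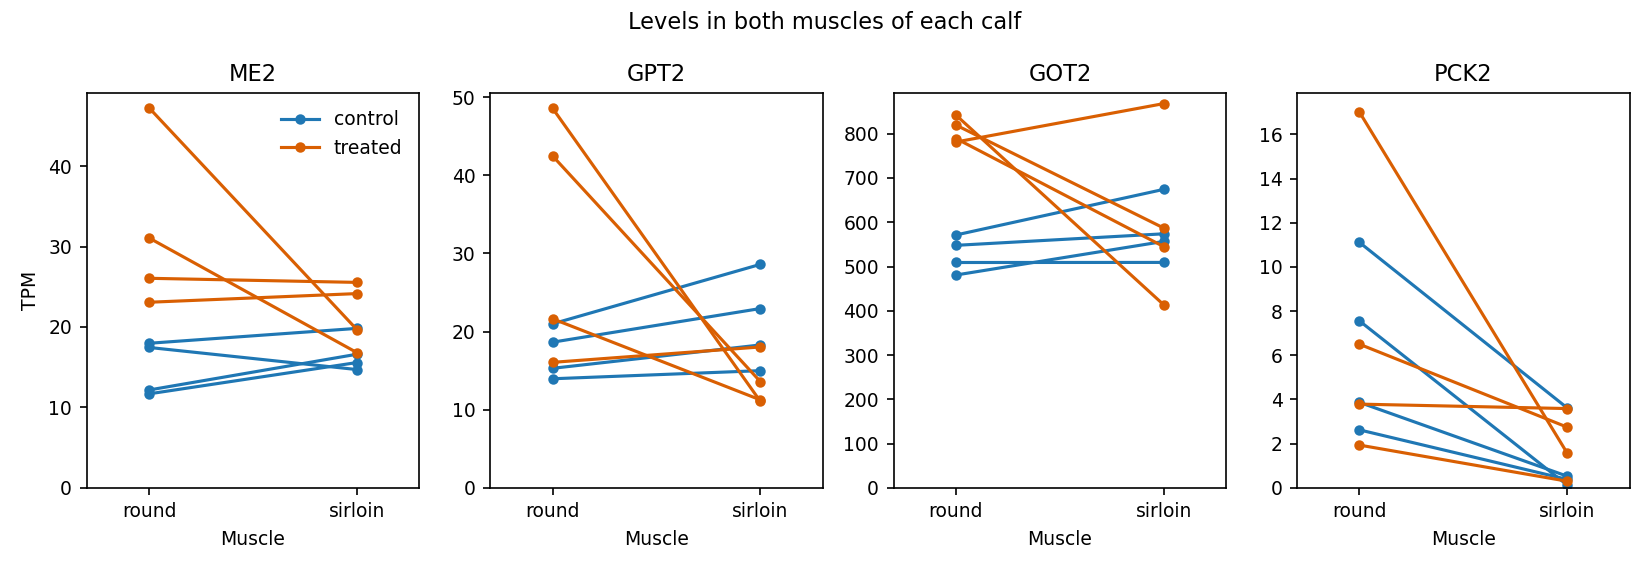
Level in TPM in the round and sirloin muscle of each of the 8 calves for ME2, GPT2, GOT2 and PCK2, with a line per calf (control in blue, treated in orange). The PCK2 lines all fall towards sirloin muscle, while the GPT2 lines rise in 4 of 4 control calves and in treated replicate 1 and fall in treated replicates 2, 3 and 4.

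Isozyme shares were taken from TPM, which allow levels to be compared between genes. The TPM per count of ME2 had a 1.60-fold range over the libraries, against 1.01-fold for ME1 and 1.02-fold for ME3. The ME2 shares carry that range. ME2 made up 67.0 ± 8.88% of the summed malic enzyme TPM in control and 77.2 ± 4.80% in treated round muscle (SD, n = 4). In sirloin muscle it made up 70.3 ± 9.39% and 72.9 ± 7.14%. The ME2 share was thus above those of ME1 and ME3 together in each group, and the diet groups overlapped. GPT2 made up 32.8 ± 2.07% of the alanine aminotransferase TPM in control and 44.2 ± 16.2% in treated round muscle. The spread in the treated group ran from 27.4% in replicate 1 to 63.2% in replicate 2. In sirloin muscle GPT2 made up 36.8 ± 4.43% in control and 32.7 ± 12.7% in treated calves. GPT2 exceeded GPT in the round libraries of treated replicates 2 and 3 only, among the 16 libraries.

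GOT2 made up 78.2% of the aspartate aminotransferase TPM in round and 81.2% in sirloin muscle on average. The difference was 3.01 percentage points (SD 3.14), with the higher share in sirloin in 7 of 8 calves (two-sided exact permutation test by sign flips within calves, p = 0.0156, adjusted over 3 shares 0.0469). The exception was control replicate 4. The smallest p this design allows is 0.00781. On leaving out any calf other than control replicate 4 the adjusted p was 0.0938. The shares of ME2 and GPT2 differed between the muscles by -0.545 points (exact permutation p = 0.867) and -3.69 points (exact permutation p = 0.367, adjusted 0.551). These tests of ME2 and GPT2 also run over both diets, so their p-values are not free of the choice by diet. The ME2 value rests on TPM, whereas by TMM-scaled counts ME2 itself was lower in sirloin in 6 of 8 calves.

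**Figure D4:**
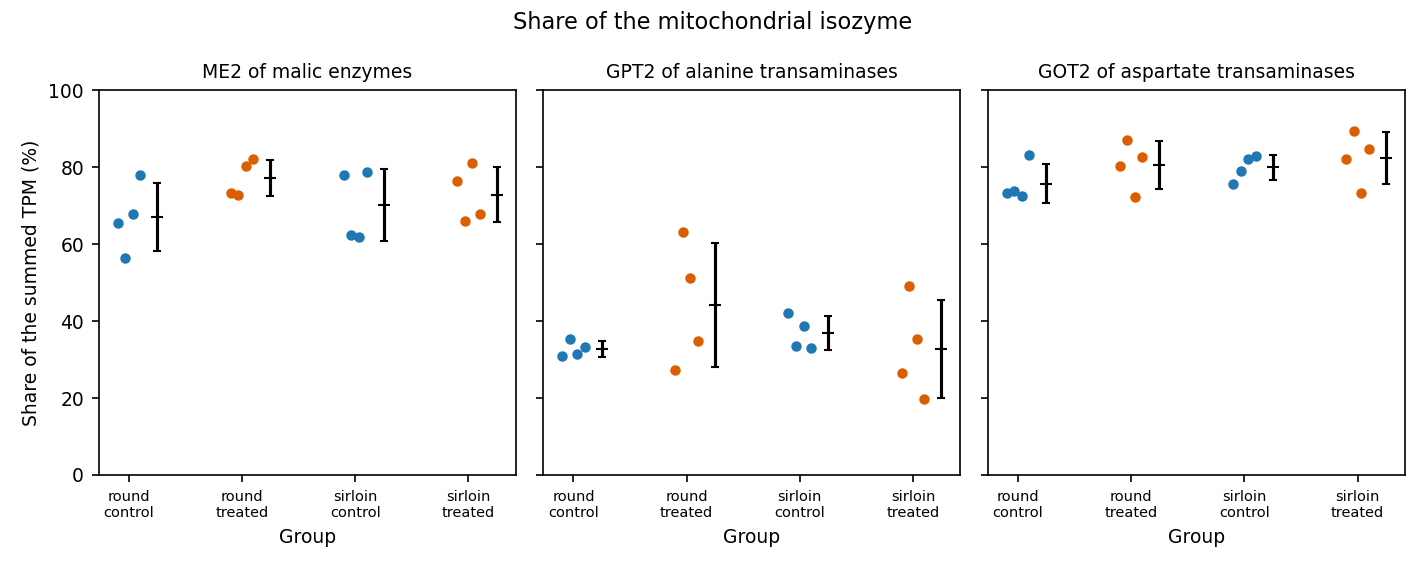
Share of the mitochondrial isozyme in the summed TPM of its enzyme family, in percent, for ME2 (of ME1, ME2 and ME3), GPT2 (of GPT and GPT2) and GOT2 (of GOT1 and GOT2). Points are libraries, and bars are the mean with SD of the 4 libraries of a group. The GPT2 share reaches 63.2% and 51.3% in treated round muscle but 30.9% to 35.5% in control round muscle.

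Agreement between the muscles of a calf was low for ME1, ME2, GPT2 and GOT2. Over 8 calves the log2 levels in round and sirloin muscle correlated with Pearson's r = 0.287 for ME2 (exact permutation p = 0.510, Spearman's rho 0.286, p = 0.501). For GPT2 r was -0.470 (exact permutation p = 0.238, rho -0.357, p = 0.389) and 0.214 without the 2 calves farthest from the median in round muscle, so its sign rests on those calves. For GOT2 r was -0.202 (exact permutation p = 0.644, rho -0.262, p = 0.536), and -0.080 without the 2 farthest calves. For ME1 r was -0.004 (exact permutation p = 0.993), and it was 0.380 for ME3, 0.420 for PCK2 and 0.675 for GPT. These correlations run over both diets and so hold the diet values, which the choice of ME2 and GPT2 used. Their p-values are therefore not free of that choice. With the diet means removed, r was -0.031 for ME2, -0.051 for GPT2 and 0.217 for GOT2, as a description.

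PC and GOT1 had the highest agreement. PC had r = 0.760 (exact permutation p = 0.0308, adjusted over 9 genes 0.200, rho 0.833, p = 0.0154, adjusted 0.138) and 0.704 without the 2 farthest calves. GOT1 had r = 0.728 (exact permutation p = 0.0443, adjusted 0.200, rho 0.762, p = 0.0368, adjusted 0.165), and 0.439 without the 2 farthest calves. With the diet means removed, r was 0.788 for PC and 0.802 for GOT1. None of the 9 genes passed after adjustment. For the 12315 genes with a mean TMM-scaled level of at least 1 the median r was 0.590, with the middle 50% from 0.344 to 0.757.

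The genes most like ME2 in level over the 8 calves (mean log2 TMM-scaled counts of both muscles, 12091 named genes) were LOC104976236 with r = 0.977, METTL3 with 0.964, LIPE with 0.963, NECAP2 with 0.946 and ADCY6 with 0.929. METTL3 is an RNA methyltransferase, LIPE the hormone-sensitive lipase and ADCY6 an adenylate cyclase. For GPT2 they were TTC26 with 0.936, SPTLC2 with 0.932, CFAP418 with 0.912, STK24 with 0.903 and TRAF3IP2 with 0.893, of which SPTLC2 is a subunit of serine palmitoyltransferase. ME2 and GPT2 themselves had r = -0.313, and ME2 and GOT2 had r = 0.257. These values describe 8 calves that share the diet groups and include treated replicate 4, whose sirloin library holds the adipocyte markers. The genes named as most like ME2 or GPT2 are the highest of 12091, and such a choice gives high r by itself.

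The other genes of the pathways were taken from 6 lists, whose 75 genes were all tested. By diet 0 genes of any list passed in edgeR in round or sirloin muscle, over both muscles or for the difference between the muscles. DESeq2 passed 1, TRIB3, a stress-induced pseudokinase, with a log2 fold change of -2.08 in round muscle (DESeq2 adjusted p = 0.0280). In edgeR TRIB3 gave -2.07 (SE 0.529, edgeR adjusted p = 0.864). Its round levels were 0.633 to 3.43 TPM in control and 0.191 to 0.559 TPM in treated calves.

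A list of 8 genes held carriers and dehydrogenases of the malate-aspartate shuttle, which work with GOT1 and GOT2, and the other carriers SLC25A10, SLC25A1 and SLC25A22. These other carriers gave 0.65 (SE 0.272), 0.37 (SE 0.398) and 0.30 (SE 0.436) by diet in sirloin muscle, where the 5 shuttle genes were negative. The median log2 fold change by diet over the 8 genes was 0.12 in round and -0.19 in sirloin muscle. MDH1, the cytosolic malate dehydrogenase, gave 0.06 (SE 0.281) and -0.10 (SE 0.354). MDH2, the mitochondrial form, gave 0.18 (SE 0.263) and -0.28 (SE 0.238). The oxoglutarate carrier SLC25A11 gave 0.02 (SE 0.249) and -0.48 (SE 0.270). Among the aspartate-glutamate carriers, SLC25A12 gave 0.01 (SE 0.287) and -0.56 (SE 0.351), and SLC25A13 gave 0.47 (SE 0.367) and -0.28 (SE 0.360). Their levels ran from 2.77 to 11.8 TPM for SLC25A13 and from 34.0 to 118 TPM for SLC25A12, the higher of that pair in each group.

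For 17 genes of pyruvate entry and turnover the medians were -0.13 in round and -0.29 in sirloin muscle, and -0.27 and -0.38 without treated replicate 4. The mitochondrial pyruvate carrier subunits MPC1 and MPC2 gave -0.06 (SE 0.260) and -0.09 (SE 0.271) in round muscle, and -0.23 (SE 0.231) and -0.22 (SE 0.276) in sirloin muscle. PCK1, the cytosolic counterpart of PCK2, was low, at 0.123 to 1.74 TPM in round muscle, and gave 1.09 (SE 0.649) in round and 0.59 (SE 0.550) in sirloin muscle. For 16 genes of the TCA cycle the log2 fold change was positive for 11 in round muscle (median 0.18) and negative for 16 in sirloin muscle (median -0.27), with 0 genes past the threshold. Leaving out treated replicate 4 left it negative for 16 genes in sirloin muscle (median -0.30) and gave a round median of 0.09. For 13 genes of glutamate turnover and other transaminases the medians were 0.15 and 0.06, and -0.11 and 0.03 without treated replicate 4, so the sign in round muscle rests on that calf. GLUD1, glutamate dehydrogenase, gave 0.15 (SE 0.199) and -0.18 (SE 0.165).

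The 7 genes of cytosolic NADPH supply and lipogenesis, which use the same cofactor as ME1, had a median log2 fold change by diet of 0.21 in round and 0.73 in sirloin muscle. The sirloin median was 0.26 without treated replicate 4, and the median difference in diet effect turned from 0.76 to -0.12 without that calf. ME1 itself went from 0.36 to 0.01 in sirloin muscle on that omission. The plot against adipocyte markers shows where this library lies. The part of adipocyte RNA in these values was not tested beyond leaving the calf out.

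**Figure D5:**
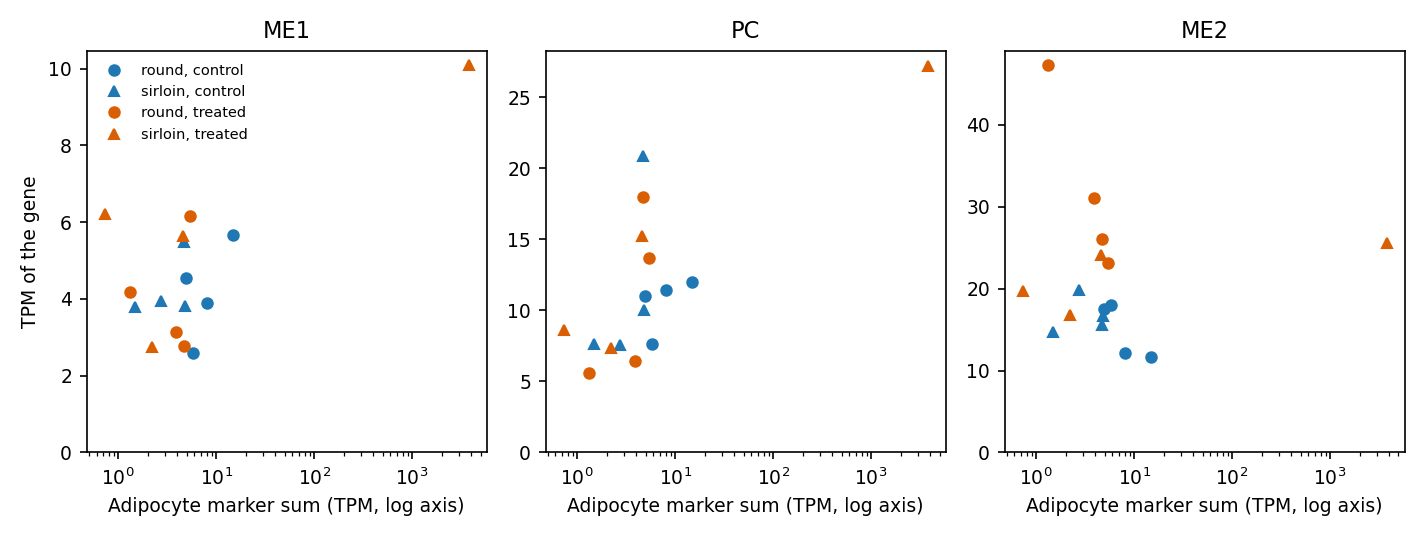
Level in TPM of ME1, PC and ME2 against the summed TPM of 5 adipocyte markers (log axis) in the 16 libraries, with circles for round, triangles for sirloin, blue for control and orange for treated. The sirloin library of treated replicate 4, at 3777 TPM of markers, has the highest ME1 (10.1 TPM) and PC (27.2 TPM). The round library of that calf, at 4.73 TPM of markers, has 18.0 TPM of PC. The highest ME2 (47.3 TPM) is in a round library with few marker transcripts.

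The amino acid response list, which groups genes under the transcription factor ATF4, held the single list gene that passed for muscle in edgeR without the block. PCK2 is itself known as an ATF4 target. By diet the list's median log2 fold change was -0.14 in round and 0.01 in sirloin muscle, and -0.65 and 0.18 without treated replicate 4. Sirloin against round, 1 of its 14 genes passed in edgeR and was lower, against 0.0612% of 22877 genes. The log2 fold change was negative for 11 of 14, with a median of -0.80, where the median over all genes was -0.004. The list was chosen with earlier results of these data known. The gene that passed was MTHFD2, a mitochondrial folate enzyme, with a log2 fold change of -2.34 (SE 0.374, edgeR adjusted p = 0.0128, and 0.0242 with the calf as a block). The adjusted p of MTHFD2 rose to 0.0722 and 0.106 in edgeR without control replicate 3 or 4. With the block it rose to between 0.0584 and 0.0863 without control replicate 2, 3 or 4 or treated replicate 1 or 2. MTHFD2 held 4.67 to 22.9 TPM in the 8 round libraries and 0.636 to 5.96 TPM in the 8 sirloin libraries. The 3 positive values of the list were 0.02 (SE 0.199) for ATF4 itself, 0.21 (SE 0.403) for CEBPB and 0.24 (SE 0.406) for CTH. CHAC1 gave -0.12 (SE 0.472), VLDLR -0.10 (SE 0.399) and DDIT3 -0.21 (SE 0.246). The activity of ATF4 was not tested.

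Of the serine synthesis enzymes, PSAT1, which is in the list of glutamate and other transaminases, gave -3.15 (SE 0.690, edgeR adjusted p = 0.155). It passed with DESeq2 (adjusted p = 0.00226) and with the calf as a block (log2 fold change -2.72, edgeR adjusted p = 0.0349). PSPH gave -3.01 (SE 0.628, edgeR adjusted p = 0.132, DESeq2 adjusted p = 6.61e-05, and 0.0603 in edgeR with the calf as a block). PHGDH gave -1.39 (SE 0.924, edgeR adjusted p = 0.914, and 0.0838 with the calf as a block). ALDH1L2, another mitochondrial folate enzyme, passed only with the block (log2 fold change -1.80, edgeR adjusted p = 0.0266). Without the block its edgeR adjusted p was 0.695, and 0.315 or more on leaving out any single calf. Asparagine synthetase (ASNS) gave -2.22 (SE 0.616, edgeR adjusted p = 0.464, and 0.0531 with the block), and TRIB3 gave -1.09 (SE 0.457, edgeR adjusted p = 0.756). In the other lists 0 genes passed for muscle in edgeR without the block. The medians there were -0.07 for the shuttle and other carriers, -0.16 for the pyruvate genes and -0.19 for the TCA cycle. They were -0.12 for glutamate and other transaminases and 0.17 for NADPH and lipogenesis. Without treated replicate 4 the last of these turned to -0.18, with 2 instead of 6 of 7 genes positive, and the glutamate median was -0.05.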

How the data were processed

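Round and sirloin muscle of 8 calves (4 control, 4 treated) gave 16 libraries. The authors deposited whole-number read counts per gene without normalization and normalized values that sum to 999756 to 1000000 per library, used here as the authors' TPM. The submitters' notes name poly(A) selection, FastQC, Trimmomatic, STAR, featureCounts, DESeq2 and the build ARS-UCD1.2, whereas the study's methods name a stranded total RNA kit with rRNA and globin removal, Trimmomatic, SortMeRNA, HISAT2, Bowtie2 and StringTie. Which of them made the tables was not settled, and overlapping genes may share reads. Deposited tables of the authors' fold changes and p-values were not used. A RefSeq gene table of another build gave symbols for 30762 of 34109 IDs (90.2%), and no coordinates are printed.

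Counts were tested with edgeR 4.0.16 (TMM, glmQLFit, glmQLFTest, R 4.3.3), two-sided, on genes with at least 1 count in any library of the fit, and adjusted by the Benjamini-Hochberg method at 0.05 over all genes. The SE was the log2 fold change divided by the square root of F. Diet was fitted within each muscle and on counts summed per calf. The difference in diet effect and the muscle contrast used all 16 libraries in 4 groups. The scripts were tested on simulated counts. Shares and correlations used exact permutation tests with scipy 1.17.1. Correlations used log2 CPM with a prior count of 2.

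The description labels pair the muscles of a calf, and the deviations of a calf's libraries from the group means correlated at 0.311 to 0.765, against at most 0.456 with any other calf. Calves of different diets with the same number did not pair.

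The members and gene lists were chosen with earlier results of these data known. Named were all members, the 5 genes most like ME2 and GPT2, 12 pathway genes and list genes past the threshold in any fit. PSPH and ALDH1L2 entered by DESeq2 or the block. ATF4, CEBPB, CTH, CHAC1, VLDLR, DDIT3 and PHGDH were added to give the range of the amino acid response list. Alternatives were DESeq2 1.42.0, RLE factors, filterByExpr, a replicate block and leaving out each calf. The calf block with each calf left out was added after seeing the data. For diet within a muscle or over both, the p-values measure spread between calves. The muscle and difference fits without the block hold no calf term and treat both libraries of a calf as separate. The calf block and the share tests use differences within calves, and the agreement tests re-pair calves.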

Additional observations from a re-analysis of the deposited data

Results flagged for a closer look

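Dixon's criterion for a single sample far from the rest was applied to the TPM of the 9 genes in the 4 groups of 4 libraries, which made 36 groups, and it marked 3. Chance alone marks about 5% of such groups. ME1 in sirloin control replicate 2 was 5.48 TPM, above 3.79 to 3.94 TPM in the other 3 controls. GPT in round treated replicate 2 was 28.3 TPM, below 40.3 to 42.6 TPM in the other 3 treated calves, and that library also held the highest ME2, ME3 and GPT2 levels. PCK2 in sirloin control replicate 1 was 3.61 TPM, above 0.119 to 0.524 TPM in the other controls.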

How the results depend on the processing

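With the calf as a replicate block 1 member, PCK2, passed for muscle instead of 0, also without control replicate 1, treated replicate 3 or treated replicate 4. The replicate numbers do not pair calves across the diets (correlations of -0.044 to 0.290 in round and -0.280 to 0.274 in sirloin muscle), and a replicate block across the diets left 0 members past the threshold. Over all genes the counts past the threshold for diet in round, in sirloin, over both muscles, for the difference in diet effect and for muscle were 4, 2, 1, 0 and 14 in edgeR, 45, 13, 37, 4 and 85 in DESeq2, and 2, 0, 0, 1 and 109 with the block. Leaving out single calves gave 0 to 3, 0 to 1, 0 to 2, 0 and 13 to 19. The GOT2 share difference was 2.05 to 3.50 points on leaving out single calves and lost its call in 7 of 8 cases, where fewer calves also raise the smallest p the test allows. The ME2 share difference ran from -2.40 to 1.44 points, turning positive (0.245, 0.344 and 1.44) without control replicate 3, treated replicate 2 or treated replicate 4. The muscle value of PC turned to -0.031 without control replicate 2 (-0.030 with the block), and reached 0.262 without control replicate 3. The agreement of ME1 turned to 0.0574 on the TPM scale, to 0.553 without the 2 farthest calves, and ran from -0.333 to 0.615 without single calves (0.0112, 0.0470 and 0.0115 among them), that of GOT2 to 0.00967 (TPM) and from -0.593 to 0.00265 without single calves, and that of GPT2 to 0.214 without the 2 farthest calves. For these the cause was not tested. Of 108 diet values each, 24 in round, 3 in sirloin, 12 over both muscles and 2 of the difference had another sign under an alternative. With 4 calves per group, and as few as 10 counts for PCK2, small differences were not detectable.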

Other observations

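The deposited TPM and counts disagree for ME2 more than for most genes. The TPM per TMM-scaled count of ME2, relative to its own median, was 1.23 to 1.37 in 7 libraries (round control replicates 1 and 4, sirloin control replicates 1, 2 and 4, sirloin treated replicates 1 and 2) and 0.856 to 1.01 in the other 9. In sirloin muscle treated replicates 4 and 1 were close by TPM, at 25.5 and 24.2, and apart by TMM-scaled counts, at 66.6 and 40.1 CPM. What sets the 7 libraries apart was not tested.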
